A study of Mus musculus with 14 samples.

Results

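The genes described here are 9 members of the activity-dependent programme of neurons: the transcription factors Npas4, Nr4a1, Nr4a2 and Nr4a3, the secreted factors Bdnf and Inhba, and the synaptic proteins Arc, Homer1 and Nptx2. They were found on the array through the RefSeq transcript accession of each non-control probe, which gave 15 probes for the 9 genes out of 55681 probes in all. Of these, 14 probes and 8 of the 9 genes passed the filter on dim probes and were tested among the 29811 probes and 14451 genes of the whole array that did. Arc and Nr4a1 lie on chromosome 15, Bdnf and Nr4a2 on 2, Homer1 and Inhba on 13, Npas4 on 19, Nr4a3 on 4 and Nptx2 on 5. Nr4a3 did not pass and is given by its values alone.

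The tissue was the medial prefrontal cortex (mPFC), a frontal area that takes part in the control of mood and social contact, and the mice were wild-type C57BL/6. The defeated mice went through repeated social defeat stress, in which a mouse meets an aggressive mouse again and again, and were classed by behaviour as susceptible (6 mice) or resilient (3 mice), while 5 naive mice were transferred between cages instead. No mutant allele is named for any group, the labels do not give the ages, and the test behind the behavioural classes is not given in the sources used here. Mice of all groups were anaesthetised with sodium pentobarbital and perfused 4 h after the final session, the mPFC was punched out (1.5 mm), and each mouse gave 35 ng of RNA for 1 array, labelled with the dye Cy3. The labels speak of separate experiments without saying which mouse was in which.

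Activity-dependent genes are silent or low in quiet neurons and are transcribed soon after synaptic input raises calcium in the cell, through factors such as CREB, SRF and MEF2 that are already present. The early products include transcription factors such as NPAS4 and the NR4A orphan nuclear receptors, and proteins that act directly at synapses. ARC drives the removal of AMPA-type glutamate receptors from the membrane, BDNF acts on the receptor TrkB, HOMER1 binds metabotropic glutamate receptors and scaffolds of the postsynaptic density, NPTX2 clusters AMPA receptors from outside the cell, and Inhba encodes the subunit that forms activin A.

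The CREB site is the regulatory sequence most often named for this family, and the promoters of the 6 members that hold its core in a window of the table are shown. Of the 9 genes, 7 had entries in the RefSeq promoter table (build GRCm38.p6), with 14 start sites between them. Arc and Nptx2 had no entry, so their promoters were not searched. The windows printed are the 250 bases before a start site, 5′ to 3′ on the gene's own strand. Capitals mark the pentamer TGACG, in either orientation (CGTCA on the printed strand), and the full cyclic AMP response element TGACGTCA holds it on both strands. The windows are chr19:4989972-4990221 on the minus strand for Npas4, chr15:101266596-101266845 on the plus strand for Nr4a1, chr2:57124004-57124253 on the minus strand for Nr4a2, chr4:48045055-48045304 on the plus strand for Nr4a3, chr2:109692186-109692435 on the plus strand for Bdnf and chr13:93303507-93303756 on the plus strand for Homer1.
Npas4: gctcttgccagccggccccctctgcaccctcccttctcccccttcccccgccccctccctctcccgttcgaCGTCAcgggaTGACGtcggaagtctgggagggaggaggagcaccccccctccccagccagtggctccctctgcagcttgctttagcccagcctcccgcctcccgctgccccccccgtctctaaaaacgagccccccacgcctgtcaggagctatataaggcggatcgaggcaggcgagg
Nr4a1: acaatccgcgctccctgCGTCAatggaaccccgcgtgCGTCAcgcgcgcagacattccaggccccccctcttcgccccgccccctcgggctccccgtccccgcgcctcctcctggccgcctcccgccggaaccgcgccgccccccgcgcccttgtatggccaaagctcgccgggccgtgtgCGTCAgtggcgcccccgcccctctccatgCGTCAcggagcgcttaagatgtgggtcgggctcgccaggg
Nr4a2: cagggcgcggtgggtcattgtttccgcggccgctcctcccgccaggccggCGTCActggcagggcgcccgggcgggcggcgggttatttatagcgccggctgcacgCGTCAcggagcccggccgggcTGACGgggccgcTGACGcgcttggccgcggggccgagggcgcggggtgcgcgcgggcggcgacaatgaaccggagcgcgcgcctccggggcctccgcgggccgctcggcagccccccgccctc
Nr4a3: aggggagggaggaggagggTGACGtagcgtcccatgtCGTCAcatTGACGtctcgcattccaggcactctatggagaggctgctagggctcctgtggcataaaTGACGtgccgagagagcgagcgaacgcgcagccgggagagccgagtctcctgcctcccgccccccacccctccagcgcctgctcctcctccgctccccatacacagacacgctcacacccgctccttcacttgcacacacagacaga
Bdnf: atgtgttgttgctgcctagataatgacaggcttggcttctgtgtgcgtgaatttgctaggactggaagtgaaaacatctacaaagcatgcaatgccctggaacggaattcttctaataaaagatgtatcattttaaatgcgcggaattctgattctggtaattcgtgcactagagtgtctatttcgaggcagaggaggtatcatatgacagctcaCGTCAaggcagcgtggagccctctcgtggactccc
Homer1: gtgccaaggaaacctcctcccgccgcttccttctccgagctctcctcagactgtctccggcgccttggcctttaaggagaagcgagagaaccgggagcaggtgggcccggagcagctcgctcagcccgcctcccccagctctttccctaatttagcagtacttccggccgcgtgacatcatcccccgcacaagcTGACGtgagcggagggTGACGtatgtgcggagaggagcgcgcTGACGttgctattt

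The pentamer stood in 6 of the 14 windows, 1 for each of 6 genes (Npas4, Nr4a1, Nr4a2, Nr4a3, Bdnf and Homer1), and in 17.8% of the 32851 windows of the same length in the table. Nr4a1, Nr4a2 and Nr4a3 each held 4 copies, Homer1 held 3, Npas4 held 2 and Bdnf held 1, which lay 35 bases before that start site. The Inhba window, the other Homer1 window and the other 6 Bdnf windows held none. None of the 14 windows held the full element TGACGTCA (1.55% of all windows did), the NR4A monomer site AAAGGTCA (1.34%) or the CArG box bound by SRF (1.47%), all searched on both strands. A match is a description of these letters and not a measured binding site.

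Arc, read by probe A_55_P2021810 (NM_018790), was the member that rose after defeat at an adjusted p under 0.05. This holds for the fit without a block, with each gene read by its tested probe with the highest mean. The normalised signal of Arc, log2 of the processed intensity minus the array's 75th percentile, ran from 2.54 over a median of 2.83 to 3.63 in the 6 susceptible mice, was 2.56, 2.91 and 3.22 in the 3 resilient mice, and was 1.55, 2.02, 1.90, 2.44 and 2.22 in the 5 naive mice. All 9 defeated mice lay above all 5 naive mice. Such a separation upwards was found for 2.01% of the genes tested over all defeated mice, for 2.49% in susceptible and for 8.32% in resilient mice.

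In susceptible mice Arc averaged 2.92 ± 0.39 (SD, n = 6), against 2.03 ± 0.34 in naive mice (SD, n = 5), a difference of 0.89 ± 0.20 (SE) on the log2 scale or 1.86-fold, with an adjusted p of 0.0383 (limma, Benjamini-Hochberg over 14451 genes). Resilient mice averaged 2.90 ± 0.33 (SD, n = 3), a difference of 0.87 ± 0.24 from the same naive mice that did not pass the threshold of 0.05 (adjusted p = 0.102). Taking all 9 defeated mice together, Arc rose by 0.88 ± 0.18 or 1.85-fold (adjusted p = 0.0174). The 2 defeated classes differed in Arc by 0.02 ± 0.23 (95% interval -0.48 to 0.52), so a difference of up to about that size in either direction was not resolved.

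Of the 8 members tested, Arc alone passed the threshold in susceptible against naive mice, where 2.6% of all genes did and 1.64% were higher, and alone in all defeated against naive mice, where 8.97% did and 5.04% were higher. Each gene was read there by its tested probe with the highest mean. Another Homer1 probe, A_55_P1982121, passed over all defeated mice when every probe was tested, as given below. No member passed in resilient against naive mice (0.152% of genes, 0.09% higher) or in susceptible against resilient mice (0.0%) in the limma fit. At an unadjusted p under 0.05, 2 of the 8 members, Arc and Bdnf, were counted in each comparison against naive mice, where 24.0% of all genes were in susceptible, 20.3% in resilient and 28.8% in all defeated mice, so that the members' share lay near that of the array. In susceptible against resilient mice 0 members were, against 0.747% of genes. The comparisons against naive mice share the same 5 controls. The plot of group differences shows the members side by side.

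**Figure D1:**
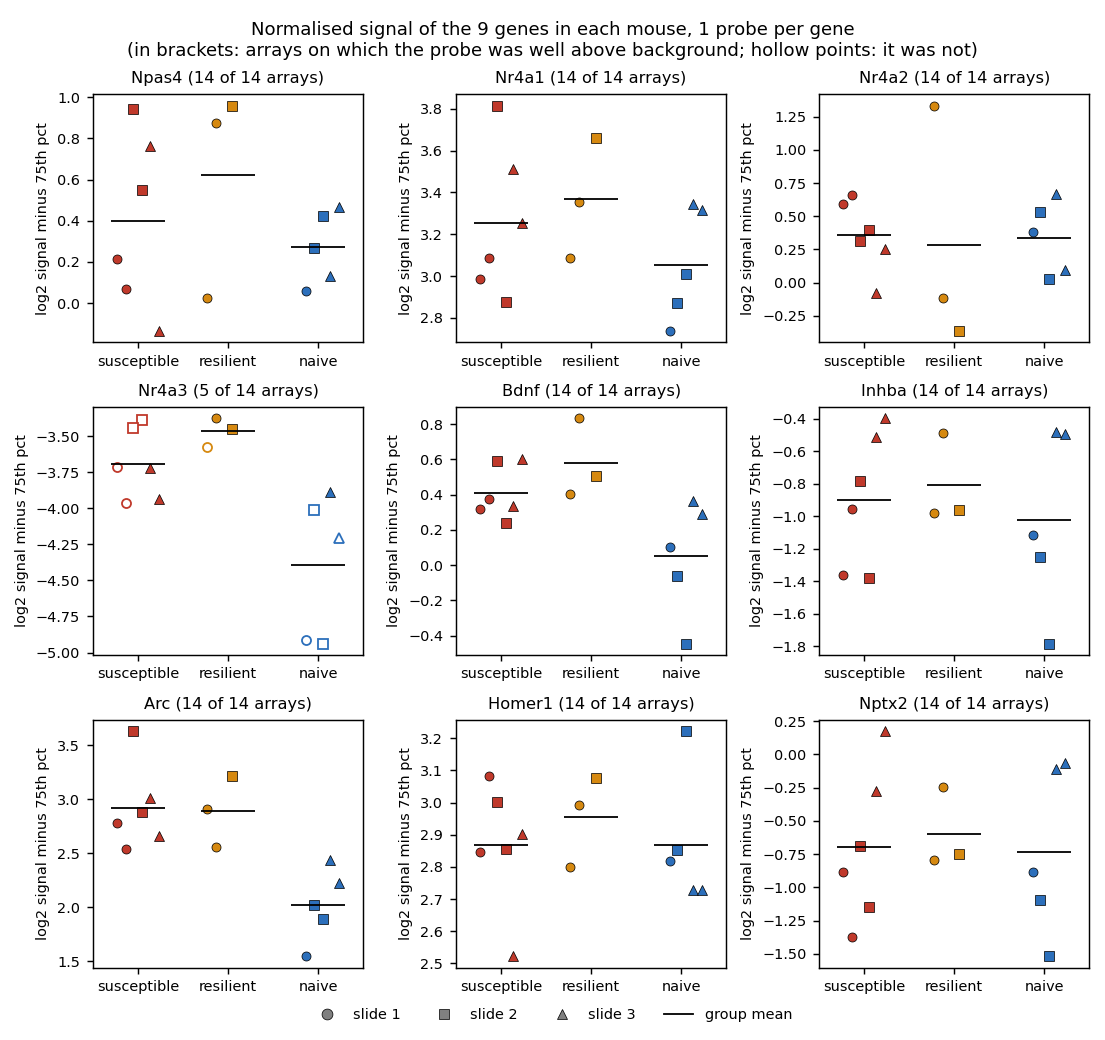
Normalised signal (log2, relative to the array's 75th percentile) of the 9 genes in each of 14 mice, with susceptible, resilient and naive mice from left to right; marker shapes give the slide, lines the group means, and hollow points an array on which the probe was not well above background. Arc is the gene whose 9 defeated mice (2.54 to 3.63) all lie above the 5 naive mice (1.55 to 2.44).

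The arrays lay on 3 slides. Slides 1 and 2 carried all 3 groups, while slide 3 was scanned on another day and carried susceptible mice 5 and 6 with naive mice 4 and 5. Arc differed in the same direction on each. Susceptible minus naive means were 1.11 on slide 1, 1.30 on slide 2 and 0.51 on slide 3, and resilient minus naive means were 1.19 on slide 1 and 1.26 on slide 2. With slide as a block the difference was 0.96 ± 0.16 in susceptible mice (adjusted p = 0.00848) and 1.08 ± 0.21 in resilient mice, which then passed the threshold (adjusted p = 0.0293); over all genes that block raised the share called to 15.3% and 3.54%.

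The susceptible call was sensitive to single mice. Leaving out each of the 14 mice in turn, it was lost in 8 fits, those without naive 1, 2 or 3 or susceptible 1, 2, 3, 4 or 5, with the difference between 0.75 and 1.00 and the adjusted p between 0.0362 and 0.0868, the highest without naive 3. The call over all defeated mice held in all 14 fits (adjusted p of 0.0166 to 0.0467). With slide as a block the susceptible call also held in all 14 (0.0084 to 0.0344), and the resilient call held in 7 of 14.

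Every naive array sat in row 1 of its slide and every defeated array in row 2, and the effects of row and of defeat cannot be told apart. Array brightness, the log2 75th percentile itself, was 8.22 ± 0.61 in susceptible mice (SD, n = 6), 8.03 ± 0.12 in resilient mice (SD, n = 3) and 7.82 ± 0.71 in naive mice (SD, n = 5). On slide 1 the defeated arrays ran from 7.83 to 8.17, against 7.31 in naive 1. On slide 2 they ran from 7.69 to 7.97, against 7.36 and 7.25 in naive 2 and 3. On slide 3 susceptible 5 and 6 had 9.24 and 8.63, and naive 4 and 5 had 8.54 and 8.64. Within slides 1 and 2, brightness and defeat were thus not separated. With brightness as a covariate Arc kept its susceptible difference at 0.87 (adjusted p = 0.0268). Over all 14451 genes that covariate raised the susceptible calls from 376 to 1463. With both slide and brightness in the fit, an alternative chosen after seeing the data, the Arc differences were 1.17 in susceptible and 1.38 in resilient mice, no gene passed in any comparison, and the adjusted p for Arc was 0.493 and 0.993.

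**Figure D2:**
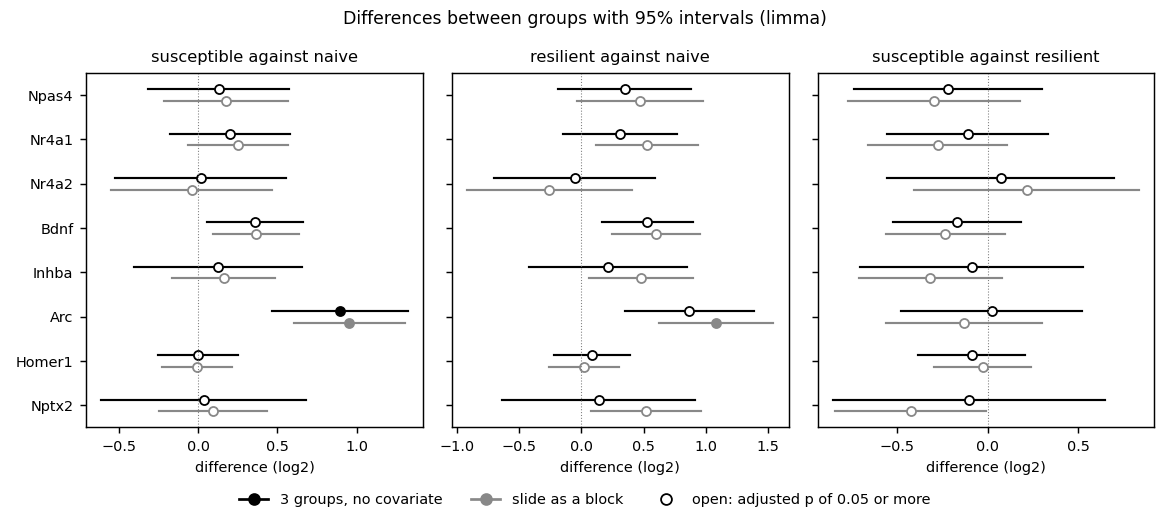
Differences between groups on the log2 scale with 95% intervals for the 8 members tested, in 3 comparisons; black is the fit without a covariate, grey the fit with slide as a block, and filled points passed an adjusted p of 0.05. Arc lies at 0.89 in susceptible and 0.87 in resilient mice relative to naive mice, and the intervals of all 8 members include 0 in susceptible against resilient mice in the fit without a covariate.

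Bdnf was higher in most defeated mice but did not pass the threshold in the fit without a block. Its signal ran from 0.24 over 0.36 to 0.60 in the susceptible mice, was 0.83, 0.40 and 0.51 in the resilient mice, and was 0.11, -0.06, -0.44, 0.36 and 0.29 in the naive mice. The resilient mice all lay above the naive mice, as they did for 8.32% of genes, whereas 3 of the 6 susceptible mice lay within the naive range.

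The Bdnf difference was 0.36 ± 0.14 in susceptible mice (adjusted p = 0.145), 0.53 ± 0.17 in resilient mice (adjusted p = 0.122) and 0.42 ± 0.13 over all defeated mice (adjusted p = 0.0581). With slide as a block the last was 0.44 ± 0.12 and passed (adjusted p = 0.0223), as 21.7% of all genes did, and that call was lost without naive 1 (0.0577). Within slides the susceptible difference was 0.24, 0.67 and 0.14 on slides 1, 2 and 3. Susceptible and resilient mice differed in Bdnf by -0.17 ± 0.17 (95% interval -0.52 to 0.18). The probe lists 1 transcript of Bdnf, a gene whose start sites are used separately, so transcripts from its different promoters were not told apart.

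Inhba, measured by 1 probe, did not pass the threshold. Susceptible mice ran from -1.38 over -0.87 to -0.40, resilient mice had -0.49, -0.98 and -0.96, and naive mice had -1.12, -1.25, -1.78, -0.48 and -0.49. The groups overlapped over most of their range, and the differences from naive mice were 0.13 ± 0.25 in susceptible and 0.22 ± 0.30 in resilient mice (adjusted p = 0.791 and 0.730). Its level went with the slide: the 4 mice on slide 3 averaged -0.47 ± 0.05 (SD), against -1.11 for the mice on the other slides, and both susceptible and naive mice were high there.

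Among the 3 transcription factors tested, none passed the threshold. Npas4, a factor induced by calcium in neurons, ran from -0.13 over 0.38 to 0.94 in susceptible mice, was 0.88, 0.03 and 0.96 in resilient mice, and was 0.06, 0.27, 0.43, 0.13 and 0.47 in naive mice. Defeated mice were more scattered (SD 0.43) than naive mice (SD 0.18), with 5 of 9 above and 2 of 9 below the whole naive range. The difference in spread was not tested, and how many of all genes scatter in this way was not counted. The differences were 0.13 ± 0.21 in susceptible and 0.35 ± 0.25 in resilient mice (adjusted p = 0.739 and 0.456).

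Nr4a1, also called Nur77, ran from 2.88 over 3.17 to 3.82 in susceptible mice, was 3.35, 3.08 and 3.66 in resilient mice, and was 2.74, 2.87, 3.01, 3.34 and 3.32 in naive mice. Susceptible 4 and 6 and resilient 1 and 3 lay above every naive mouse. The differences were 0.20 ± 0.18 and 0.31 ± 0.21 (adjusted p = 0.518 and 0.434), and with slide as a block the resilient difference was 0.53 ± 0.19, with an adjusted p of 0.106.

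Nr4a2, also called Nurr1, had 2 probes. The one with the higher mean ran from -0.08 over 0.36 to 0.66 in susceptible mice, was -0.11, 1.33 and -0.36 in resilient mice, and was 0.38, 0.53, 0.03, 0.67 and 0.09 in naive mice. Resilient mice held both the highest and the lowest values of the series, set by resilient 2 and resilient 3, and their SD of 0.92 compares with 0.26 in susceptible and 0.27 in naive mice. The other probe also had resilient 2 highest (-0.38) and resilient 3 lowest (-1.67) of the 14 mice. Differences were 0.02 ± 0.25 in susceptible and -0.05 ± 0.30 in resilient mice on the first probe (adjusted p = 0.975 and 0.941), and -0.18 ± 0.25 and -0.30 ± 0.30 on the second.

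Nr4a3, also called NOR1, lay near background. Its probe, spotted 10 times on each array, was well above background on 5 of 14 arrays, those of susceptible 5 and 6, resilient 1 and 3 and naive 4. The signal ran from -3.96 over -3.72 to -3.39 in susceptible mice, was -3.38, -3.57 and -3.45 in resilient mice, and was -4.91, -4.02, -4.94, -3.89 and -4.20 in naive mice. Most of these values are not measured levels, so no difference is given.

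Homer1 was read by 5 probes, which gave different answers. The probe with the highest mean, A_55_P1982111, ran from 2.52 over 2.88 to 3.08 in susceptible mice, was 2.99, 2.80 and 3.08 in resilient mice, and was 2.82, 2.85, 3.22, 2.73 and 2.73 in naive mice. The groups overlapped throughout, with differences of -0.00076 ± 0.12 in susceptible and 0.09 ± 0.14 in resilient mice (adjusted p = 0.997 and 0.778).

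Probe A_55_P1982121, by contrast, ran from -0.74 over 0.02 to 0.24 in susceptible mice, was 0.29, 0.04 and -0.02 in resilient mice, and was -0.40, -0.45, -0.99, -0.58 and -0.76 in naive mice. All defeated mice but susceptible 6 lay above every naive mouse. The difference over all defeated mice was 0.62 ± 0.16 or 1.53-fold and passed the threshold (adjusted p = 0.0371 over 29811 probes, of which 7.14% passed, against 1.23% in susceptible and 0.0% in resilient mice relative to naive mice), while it was 0.55 ± 0.17 in susceptible and 0.74 ± 0.21 in resilient mice (adjusted p = 0.0969 and 0.109). Leaving out each mouse in turn, the call over all defeated mice held in 3 of 14 fits (adjusted p of 0.0111 to 0.1003), and with slide as a block in 13 of 14 (the exception without naive 1, 0.067). With that block 14.4%, 4.83% and 21.3% of probes passed in susceptible, resilient and all defeated mice relative to naive mice.

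The other 3 Homer1 probes were also higher over all defeated mice, by 0.52 ± 0.16 for A_66_P104134, 0.44 ± 0.15 for A_55_P1982122 and 0.27 ± 0.13 for A_55_P2122789, without passing the threshold (adjusted p = 0.0549, 0.0792 and 0.220). On each of these 3 probes, 7 of the 9 defeated mice lay above all naive mice, and the 2 that did not were susceptible 5 and 6, both on slide 3. How many of all probes separate as far as these or A_55_P1982121 was not counted. Within slide 3 the susceptible minus naive difference was 0.0024 to 0.18 for the 4 probes that were higher, against 0.53 to 0.92 on slide 2.

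Whether the probes differed from each other was tested after their values were seen, as the value of each probe minus that of A_55_P1982111 in the same mouse. The p-values come from the values that prompted the test and are not independent support for a difference. The permutations exchanged mice without regard to slide. How many pairs of probes of other genes differ as far was not counted. For A_55_P1982121 this value was higher by 0.59 over all defeated mice than in naive mice (exact two-sided permutation test, p = 0.0015, adjusted over 12 tests p = 0.018), and for A_66_P104134 by 0.49 (exact permutation p = 0.00699, adjusted p = 0.042). Naive 3 was the highest naive mouse on A_55_P1982111 and the lowest on A_66_P104134, A_55_P1982122 and A_55_P1982121, and without it none of the 12 tests passed (0.41 for A_55_P1982121, exact permutation p = 0.00979, adjusted p = 0.114). The arrays annotate A_55_P1982111 and A_66_P104134 to accession NM_147176 and the others to NM_011982, so the contrast did not follow the accession, and which Homer1 isoforms each probe reads is not given in the files.

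**Figure D3:**
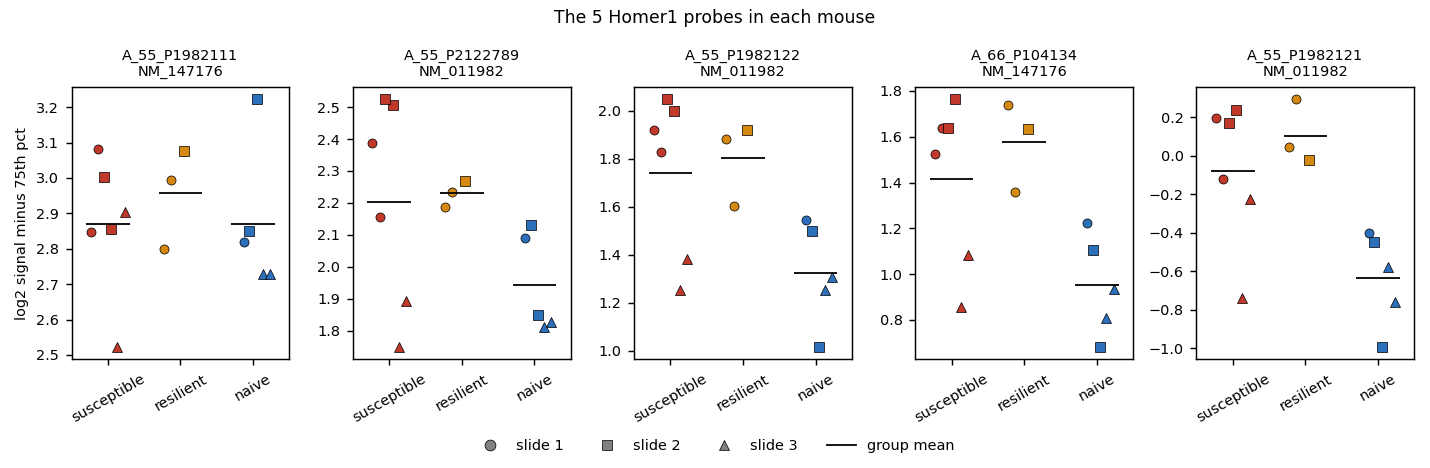
Normalised signal (log2, relative to the array's 75th percentile) of the 5 Homer1 probes in each mouse, susceptible, resilient and naive from left to right, with slides as marker shapes and lines at group means. On A_55_P1982111 the means are 2.87 in susceptible, 2.96 in resilient and 2.87 in naive mice, whereas on A_55_P1982121 they are -0.08 in susceptible, 0.10 in resilient and -0.64 in naive mice.

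Nptx2, the neuronal pentraxin also called Narp, did not pass the threshold on the probe with the higher mean. Susceptible mice ran from -1.37 over -0.79 to 0.17, resilient mice had -0.25, -0.79 and -0.75, and naive mice had -0.89, -1.09, -1.52, -0.11 and -0.07. Differences were 0.04 ± 0.30 in susceptible and 0.14 ± 0.36 in resilient mice (adjusted p = 0.956 and 0.866). The mice of slide 3 averaged -0.07 ± 0.19 (SD, n = 4), against -0.94 for the mice on the other slides. With slide as a block the resilient difference was 0.52 ± 0.21 (adjusted p = 0.132).

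The other Nptx2 probe was dim, well above background on 2 of 6 susceptible, 3 of 3 resilient and 2 of 5 naive arrays, so that it entered the test only through the resilient mice. It ran from -4.16 over -3.45 to -2.08 in the susceptible mice and had -2.81, -3.46 and -3.32 in the resilient mice and -4.58, -3.99, -5.05, -2.39 and -2.32 in the naive mice, whose 2 high values were the slide 3 mice. The naive mice of slides 1 and 2, the slides that held the resilient mice, were not well above background, so no difference is given for this probe.

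Across the 8 members tested, 7 had a difference above 0 in susceptible against naive mice, 7 in resilient against naive mice and 7 in all defeated against naive mice, against 53.2%, 53.1% and 53.1% of all genes. The median difference of the members was 0.13, 0.26 and 0.18, against a median of 0.02 over all genes in each comparison. In susceptible against resilient mice 2 members lay above 0 (Arc and Nr4a2), where 52.8% of all genes did, with a median of -0.10 over the members.

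Mice that were high for one gene of the group were not high for all. Of the 28 pairs of members, 5 correlated across the 14 mice after group means were removed (permutation test, 100000 resamples, adjusted over 28 pairs). The share of all pairs of genes on the array that correlate as far was not counted, so the 5 are not shown to be particular to the members. Bdnf, Inhba and Nptx2 went together: Pearson r was 0.87 for Bdnf with Inhba (Spearman rho 0.88), 0.79 for Bdnf with Nptx2 (rho 0.79) and 0.90 for Inhba with Nptx2 (rho 0.88), with adjusted permutation p-values of 0.00098, 0.00539 and 0.00056. Nr4a1 went with Arc (r = 0.78, rho = 0.67, adjusted permutation p = 0.00539; for rho 0.0632), and Npas4 and Nr4a2 ran opposite (r = -0.72, rho = -0.72, adjusted permutation p = 0.018).

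With slide means removed as well, 2 pairs still passed, Bdnf with Inhba (r = 0.89, adjusted permutation p = 0.00056) and Bdnf with Nptx2 (r = 0.81, 0.00658). Inhba with Nptx2 stood at 0.65 (0.066), Nr4a1 with Arc at 0.69 (0.066), and Npas4 with Nr4a2 stood at -0.66 (0.066). Leaving out for each pair the 2 mice farthest from the median of its first gene, Inhba with Nptx2 alone passed (r = 0.86, 0.0126), and the other 4 had r of 0.78, 0.70, 0.74 and -0.74 with adjusted p-values of 0.056, 0.0684, 0.056 and 0.056. Single mice recurred at the extremes: susceptible 4 was the highest of its group for Npas4, Nr4a1 and Arc, resilient 2 the lowest of its group for 6 of 8 members, and naive 4 the highest of its group for 5 of 8.

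**Figure D4:**
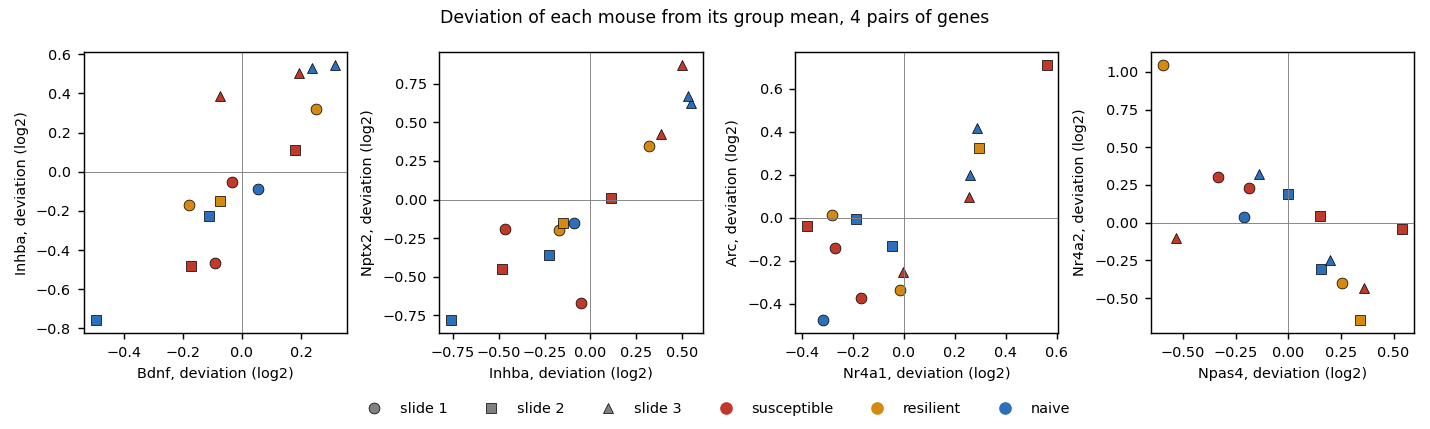
Deviation of each of the 14 mice from its group mean (log2) for 4 pairs of genes, with colours for the group and shapes for the slide. Bdnf with Inhba (r = 0.87) and Inhba with Nptx2 (r = 0.90) run upward with the 4 mice of slide 3 high for Inhba and Nptx2, Nr4a1 runs upward with Arc (r = 0.78), and Npas4 runs downward with Nr4a2 (r = -0.72).

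Over the whole array, the gene whose levels followed Nr4a1 most closely across the 14 mice was Egr1 (Pearson r = 0.92 with group means left in, 0.92 with them removed), followed by Tmem109 and Hrh1 (0.90 and 0.88). For Arc they were Ypel3, Zfp35 and Tmeff2 (0.92 each, and 0.81, 0.76 and 0.75 with group means removed). For Bdnf they were D630045J12Rik, Scrn1 and Lhfpl4 (0.98, 0.96 and 0.95). Homer1 was followed most closely by Rnf216, Kdm2a and Pcnx (0.94, 0.91 and 0.91), and Npas4 by Tcap, Hps6 and Kash5 (0.83, 0.77 and 0.74). For Nr4a2 they were Skap1, Ly6g6e and Nxph3 (0.88, 0.88 and 0.86), for Inhba Hirip3, Mthfd1 and Actr8 (0.93, 0.92 and 0.92), and for Nptx2 Olfm2, Ppm1k and Rai1 (0.91, 0.91 and 0.90). These are descriptions over mice that share slides and brightness.

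Related genes of the same response were counted list by list over all defeated against naive mice, where 5.04% of all genes were higher and 8.97% passed in either direction, so that a list with 1 gene past the threshold lies within 1 gene of that share. Of 12 genes tested in a list of Fos, Jun and Egr factors that also holds Btg2, an antiproliferative early gene, 2 rose and 0 fell, Fos by 0.78 ± 0.21 (adjusted p = 0.0382) and Jun by 0.67 ± 0.19 (0.0471), with a list median of 0.32. Of 7 MAPK phosphatases and Gadd45 genes, 1 rose, the phosphatase Dusp1 by 0.37 ± 0.10 (0.0425), while its relative Dusp4 stood at 0.72 ± 0.28 (0.112). Of 25 other activity-induced effectors 6 rose and 0 fell (median 0.22), among them the cell cycle inhibitor Cdkn1a by 1.14 ± 0.25 (0.0223), the nuclear protein Csrnp1 by 0.57 ± 0.10 (0.014) and Nptx1, the pentraxin paralogous to Nptx2, by 0.79 ± 0.22 (0.0422). The others were Rgs2, a regulator of G protein signalling (0.52 ± 0.14, 0.0349), Vgf, a secreted neuropeptide precursor (0.41 ± 0.12, 0.0498), and the transcription factor gene Maff (0.85 ± 0.25, 0.049). Csrnp1 and Cdkn1a also rose in susceptible against naive mice, where no gene of the first 2 lists passed.

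Genes that act with the members were counted in the same way, against the same 8.97% of all genes. Among 9 BDNF receptors and processing genes, 1 rose, the sorting receptor gene Sorcs1, by 0.46 ± 0.11 (adjusted p = 0.0291), and the receptor gene Ntrk3 stood at 0.23 ± 0.13 (0.254). Of 5 pentraxin and AMPA receptor genes, 2 rose, Nptx1 (already counted above) and the receptor subunit Gria3, by 0.39 ± 0.10 (0.0313). None of 13 activin receptors, subunits and antagonists, none of 9 HOMER partners and none of 10 ARC partners passed, and the lowest p in each was that of the activin signal transducer Smad3 (0.41 ± 0.12, 0.0513), the channel gene Trpc1 (0.57 ± 0.20, 0.0815) and the kinase subunit gene Camk2b (0.24 ± 0.08, 0.0744). The activin antagonist gene Fst stood at 0.58 ± 0.23 (0.113), the calcium channel gene Itpr1 at -0.30 ± 0.14 (0.177) and the dynamin gene Dnm2 at -0.21 ± 0.08 (0.112). Among 5 NR4A partners, 2 fell, the glucocorticoid receptor gene Nr3c1 by 0.42 on the log2 scale (0.0255) and the nuclear receptor gene Nr2f1 by 0.64 (0.0408); NR3C1 is the receptor for corticosterone, the stress hormone of mice. Of 15 upstream factors and coactivators, 1 fell, the CREB relative Atf1, by 0.44 (0.0353), and the MEF2 gene Mef2c stood at 0.35 ± 0.11 (0.0553). No gene of any of these lists passed in susceptible against resilient mice or in resilient against naive mice in the limma fit without a block. With slide as a block, Fos, Csrnp1 and Sorcs1 also rose and Elk1 and Elk4, factors that act with SRF, fell in resilient against naive mice, where 3.54% of all genes passed with that block.

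**Figure D5:**
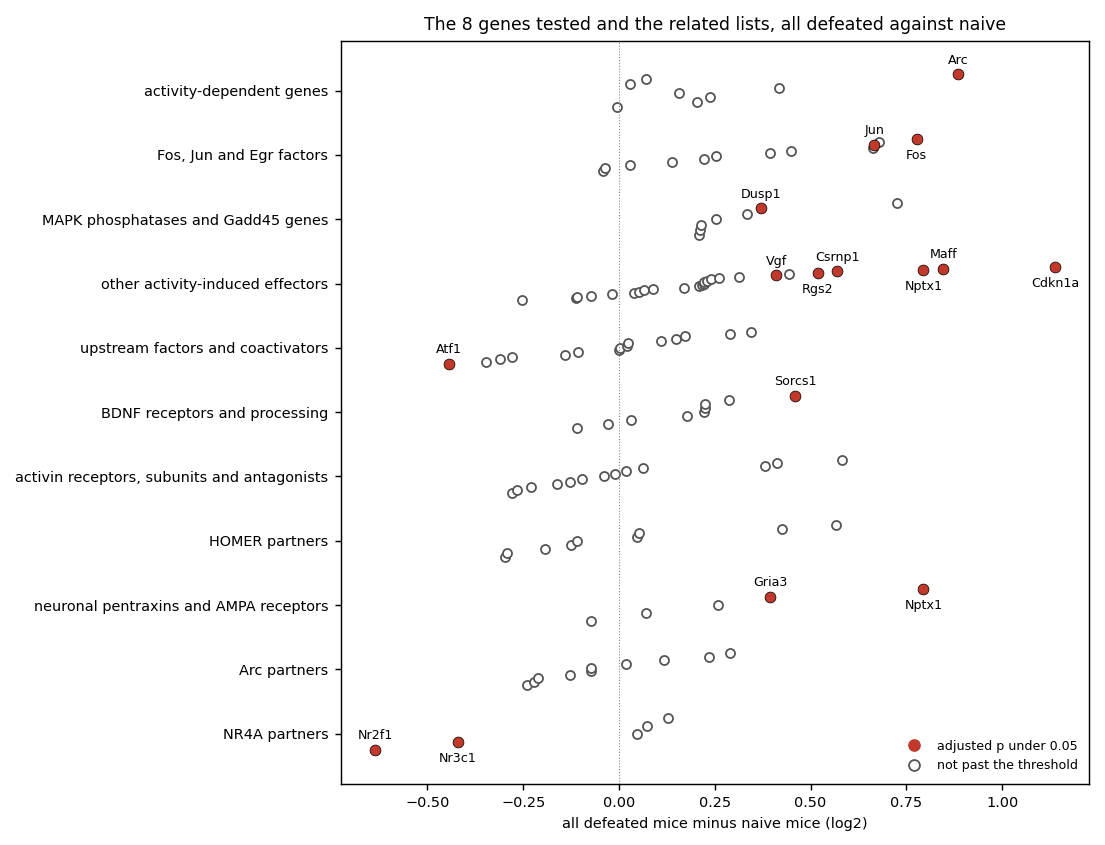
Differences between all defeated and naive mice (log2) for the 8 members tested and for each related list; filled points passed an adjusted p of 0.05 and are named. Arc, at 0.88, is the filled point of the top row, beside Fos at 0.78 and Cdkn1a at 1.14 in the lists beneath.

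Markers of the cells in the punch were read alongside, in the comparison where 8.97% of all genes passed. All 5 neuron and all 6 excitatory cortical neuron markers were well above background on every array, and 0 of 5 and 0 of 6 passed over all defeated against naive mice. The mean level of the neuron list was 5.54 to 6.01 in susceptible, 5.83 to 5.96 in resilient and 5.66 to 5.76 in naive mice. Its medians were 5.90, 5.92 and 5.69 in that order, and the resilient mice all lay above the naive mice. Of 6 inhibitory neuron markers 1 rose, Sst, and the list stood at 3.17 to 3.39 in susceptible, 3.08 to 3.52 in resilient and 2.88 to 3.10 in naive mice, so that the susceptible mice all lay above the naive mice. Of 6 astrocyte markers 1 fell, S100b, and the list stood at 2.65 to 3.35 in susceptible, 2.55 to 2.96 in resilient and 3.05 to 3.48 in naive mice. The resilient mice all lay below the naive mice there. Of 5 endothelial markers 2 fell, Flt1 and Slco1a4, and the list stood at -0.05 to 0.49 in susceptible, -0.07 to 0.76 in resilient and 0.51 to 1.11 in naive mice. For this list the susceptible mice all lay below the naive mice. Of single genes, 2.49% separated upwards from naive mice in susceptible and 8.32% in resilient mice. The share that separated downwards, and the share for means of lists, was not counted. Of 8 striatal neuron markers 1 fell, Adora2a, of 5 microglia markers 1 fell, Aif1, and of 3 choroid plexus markers 1 fell, Ttr. No marker passed among the meningeal fibroblast, pericyte or smooth muscle, erythroid, oligodendrocyte, oligodendrocyte precursor and claustrum or layer 6b lists. The meningeal list nevertheless had a median of -0.32 in susceptible, -0.30 in resilient and 0.53 in naive mice. The pericyte or smooth muscle list had a median of 0.79 in susceptible, 0.99 in resilient and 1.43 in naive mice. The erythroid list had a median of 0.40 in susceptible, -0.25 in resilient and -1.05 in naive mice. In each of these 3 lists the groups overlapped. In tissue punches fewer cells of a type and less RNA per cell cannot be told apart, and the part of these markers in the Arc difference was not tested.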

How the data were processed

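Single-colour Agilent arrays (Feature Extraction 11.0.1.1) gave 1 file per mouse; per the file headers, the processed signal is an intensity already background-corrected by the scanner software. The authors' deposited table contains log2 values, which equal log2 of those signals minus each array's 75th percentile (r = 1.0 on every array). Their difference from the log2 signals was constant on each array (SD up to 2.97e-07). The column 75th percentiles lay between -0.00046 and -7.6e-06, so the scale and centring of the deposited table are known. Its column medians lie between -3.09 and -2.74. Here a like subtraction was made from the scanner files. The percentile was taken over all spots but controls, and outlier spots were left out of the probe values only. No spot was saturated, and 48.0% to 65.4% of spots per array were well above background. A probe was tested when every array of 1 group or more had it well above background, and a gene by its tested probe with the highest mean. Signal over background and the number of arrays limit precision.

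Probes were named through RefSeq accessions (GRCm38.p6; 27509 of 55681 probes matched, covering 20887 genes), and the headers name mm9. Groups were compared in 1 limma fit (limma 3.58.1, R 4.3.3) over all 14 arrays, adjusted by Benjamini-Hochberg over 14451 genes (or 29811 probes) at 0.05, after the fit was tested on simulated data; every adjusted p is from that tool unless another test is named. Pairs and Homer1 probes were tested by permutation (scipy 1.17.1). Alternatives covered background correction, normalization, filter, probe choice, slide, scan day, brightness, replicate number and single arrays. Every member was named, and of each related list the genes past the threshold and the 2 with the smallest p in susceptible against naive mice, and for each member the 3 genes with the highest r over the 14 arrays.

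The members and lists were chosen with earlier results of these data known, and the related lists are not independent evidence. Each array is labelled as a separate mouse. Whether replicate numbers pair the mice was not settled: 8 of 11 same-numbered pairs correlated above 0.1 (range -0.38 to 0.71). The main fit did not use them. A replicate block raised the genes called in susceptible against naive mice from 376 to 1710.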

Additional observations from a re-analysis of the deposited data

Results flagged for a closer look

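For Homer1 probe A_55_P1982111, naive 3 stood apart from the other 4 naive mice at 3.22, with the nearest at 2.85, so that 0.749 of the whole range of the naive group lay between them. It was the 1 such case among 28 groups of values checked over the members' probes, and chance alone gives about 1 in 20. The tests of the other Homer1 probes against this one are given with and without that mouse above.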

How the results depend on the processing

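The count of members past the threshold in susceptible against naive mice, 1 (Arc), became 0 with no filter on dim probes (Arc stayed called over all defeated mice), with the 2 groups compared alone in the fit and with slide and brightness together, 2 (Arc and Bdnf) with scan day as a block and with the replicate block, and 0 to 2 without 1 array (with or without slide as a block, here and below). In resilient against naive mice, 0 became 1 (Arc) with slide as a block, as a random block and with brightness, 2 (Arc and Bdnf) with scan day as a block and with the replicate block, and 0 to 3 without 1 array. Over all defeated mice, 1 became 2 (Arc and Nr4a3, whose probe was dim on most arrays) with a filter of 3 arrays well above background, 2 (Arc and Bdnf) with slide as a block or random block, with scan day as a block and with the replicate block, 0 with slide and brightness together, and 1 to 3 without 1 array. The blocks and the covariate also raised the calls over all 14451 genes. In susceptible against naive mice, 376 genes became 2500 with scan day as a block and 1710 with the replicate block. In resilient against naive mice, 22 became 1466 and 727 with those blocks, and 1099 with brightness. Slide as a block gave 3.54% there and 21.7% over all defeated mice. With all defeated mice together, 1296 became 3833 with scan day and 2851 with the replicate block. With no filter and in smaller fits the number of genes tested or arrays differs by construction, and otherwise the cause was not tested. No member passed in susceptible against resilient mice under any alternative run. Over the members' probes, 3 tests passed, 10 with slide as a block (2 of them of the dim Nptx2 probe, whose naive arrays on slides 1 and 2 were not well above background) and 0 with no filter. Of 28 pairs, 5 passed, 2 with slide means removed, 8 after normexp and 1 without the 2 farthest mice.

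Directions near 0 turned. Nr4a2 in susceptible against naive mice was -0.032 after normexp, -0.080 as the mean of its probes, -0.041 with slide as a block, -0.022 with slide as a random block, -0.042 with slide and brightness, and -0.17 to 0.10 without 1 array. Homer1 there was 0.040 after normexp, 0.011 after quantile normalization, 0.0052 in the value table, 0.34 as the mean of its probes, 0.069 with the replicate block, 0.056 with brightness, and -0.059 to 0.087 without 1 array. Inhba there was -0.13 with brightness, -0.019 with slide and brightness, and -0.064 to 0.26 without 1 array, and Nptx2 -0.049 with the replicate block, -0.29 with brightness, and -0.16 to 0.20 without 1 array. In resilient against naive mice, Homer1 was -0.0072 with scan day, -0.33 with slide and brightness and -0.029 to 0.18 without 1 array, Nptx2 -0.034 with brightness and -0.057 to 0.64 without 1 array, and Nr4a2 -0.68 to 0.27 without 1 array. In susceptible against resilient mice, Arc was -0.13 with slide, -0.037 with scan day, -0.077 with slide as a random block, -0.18 with the replicate block, -0.21 with slide and brightness and -0.26 to 0.18 without 1 array, and Homer1 0.024 with the replicate block, 0.070 with slide and brightness and -0.17 to 0.016 without 1 array. There, without 1 array, Nr4a1 was -0.40 to 0.036, Nr4a2 -0.25 to 0.66, Inhba -0.43 to 0.071 and Nptx2 -0.54 to 0.071. Over all defeated mice, Nr4a2 was 0.038 with the replicate block, 0.027 with brightness and -0.26 to 0.081 without 1 array, Inhba -0.061 with brightness and -0.034 to 0.33 without 1 array, Homer1 -0.013 with scan day, -0.29 with slide and brightness and -0.041 to 0.12 without 1 array, and Nptx2 -0.20 with brightness and -0.13 to 0.33 without 1 array.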
